A study of Mus musculus with 10 samples.

Results

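The genes described here are 341 protein-coding genes of mouse chromosome 12, out of 54532 genes in the table. They are those with a mean of at least 10 counts-per-million (CPM, the count divided by the library's total) over the 9 libraries of pluripotent cells. Chromosome 12 holds 643 protein-coding genes in the table, of which 349 reached that level. The rule left out 5 of these by name (Esrrb, Sox11, Id2, Fos and Rsad2, whose levels follow cell state, growth factors or interferon) and 3 ribosomal protein genes. The part was chosen on a measured difference, that of 1 epiblast stem cell (EpiSC) library from the other 4. All values of that contrast are therefore given as a description, with no test.

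RNA was sequenced from mouse cells of strain 129SV in 10 libraries. EpiSC, which are grown from the epiblast of the implanted embryo, gave 5 libraries. Of these, haEpi1_1 and haEpi5_1 are labelled p53-deficient and haploid, p53KO2nEpiSCs is labelled p53-deficient and diploid, and Epi_male and Epi_fema are labelled wild type and diploid. Epi_fema is read here as a female line and called the female library. Epiblast-like cells (EpiLC), a transient form made from embryonic stem cells (ESC), gave a p53-deficient haploid library (p53KOhaEpiLCs) and a wild-type haploid library (WT_haEpiLCs). ESC gave a wild-type haploid library (haESCs) and a wild-type diploid library (WT_ESCs), and wild-type diploid embryo fibroblasts gave 1 (MEF). Each label of genotype and ploidy has 1 library, except 2 haploid p53-deficient EpiSC lines and 2 wild-type EpiSC lines. P-values below therefore measure the spread between lines of different label.

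Cultured pluripotent cells can gain whole chromosomes, and cells with the extra copy may take over a culture. In cells with an extra chromosome, RNA of most of its genes is known to scale with gene copies, while a gene is called buffered when its RNA stays near the level of cells without the gain. A gain from 2 to 3 copies gives a ratio of 3:2 (0.58 on the log2 scale) and a gain from 2 to 4 copies a ratio of 2:1 (1 on the log2 scale) for a gene that follows its copies. DNA was not analysed here, so the number of copies of chromosome 12 in these lines is not known from these data.

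Promoters of genes at both ends of the range are shown to let their sequence be read beside their values. These are Zfp36l1 and Cep128, which were highest in the female library among genes of small spread, and Actn1 and Snx13, which were close to the other EpiSC libraries. Each run is the 250 bases before the start of the gene in RefSeq (GRCm38.p6, the assembly of mm10), and 300 of the 341 genes had such an entry. Capitals mark the motifs searched on both strands, which were TATAAA (the TATA box core), CCAAT (the CCAAT box), GGGCGG (the GC box), CACGTG (an E-box) and CGGAAG (the ETS factor core). The Zfp36l1 promoter lies at chr12:80113014-80113263 on the minus strand, and there the TATA box letters overlap a CCAAT box on the other strand. That of Cep128 lies at chr12:91384410-91384659 on the minus strand. That of Actn1 lies at chr12:80260364-80260613 on the minus strand and that of Snx13 at chr12:35046939-35047188 on the plus strand.
Zfp36l1: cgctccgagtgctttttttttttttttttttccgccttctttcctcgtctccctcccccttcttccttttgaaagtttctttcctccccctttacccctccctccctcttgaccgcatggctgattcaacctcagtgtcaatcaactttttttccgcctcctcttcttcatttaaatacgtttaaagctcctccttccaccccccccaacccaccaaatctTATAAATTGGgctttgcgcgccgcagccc
Cep128: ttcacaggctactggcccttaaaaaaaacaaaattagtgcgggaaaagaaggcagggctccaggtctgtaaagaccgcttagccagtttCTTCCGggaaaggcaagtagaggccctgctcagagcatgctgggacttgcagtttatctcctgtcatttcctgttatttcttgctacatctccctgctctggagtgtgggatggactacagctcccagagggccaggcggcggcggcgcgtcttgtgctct
Actn1: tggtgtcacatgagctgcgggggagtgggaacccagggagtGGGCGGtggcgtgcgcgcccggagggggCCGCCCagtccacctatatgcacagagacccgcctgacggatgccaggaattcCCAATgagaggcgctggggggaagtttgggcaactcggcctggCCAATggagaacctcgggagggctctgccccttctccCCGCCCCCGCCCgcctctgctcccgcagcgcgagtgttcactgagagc
Snx13: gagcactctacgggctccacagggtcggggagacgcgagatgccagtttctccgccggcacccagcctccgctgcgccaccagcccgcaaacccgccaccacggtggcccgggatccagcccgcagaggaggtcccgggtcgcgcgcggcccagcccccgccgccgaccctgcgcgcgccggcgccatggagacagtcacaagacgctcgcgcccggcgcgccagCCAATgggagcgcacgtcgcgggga
The bases G and C made up 48.4% of the Zfp36l1 run, 53.2% of the Cep128 run, 68.4% of the Actn1 run and 75.6% of the Snx13 run. Among the 135 genes with a promoter entry and a small spread, G and C content and the difference had a Spearman correlation of -0.15, as a description over genes that share the same libraries.

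Chromosome 12 genes stood higher in the female EpiSC library than in every other library. They took 4.60% of its counts (95% exact binomial interval 4.59 to 4.61%). In the other EpiSC libraries they took 2.89% (haEpi1_1), 2.76% (haEpi5_1), 2.79% (Epi_male) and 2.97% (p53KO2nEpiSCs), a mean of 2.85% ± 0.0952 (SD, n = 4). The share was 2.82% in WT_haEpiLCs, 3.00% in p53KOhaEpiLCs, 2.75% in WT_ESCs, 3.04% in haESCs and 2.43% in MEF. The female library thus lay 1.61-fold above the mean of the other 4 EpiSC, while the 8 other pluripotent libraries spanned 2.75 to 3.04% and did not separate by cell type, ploidy label or p53 label. Intervals cover counting error only.

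**Figure D1:**
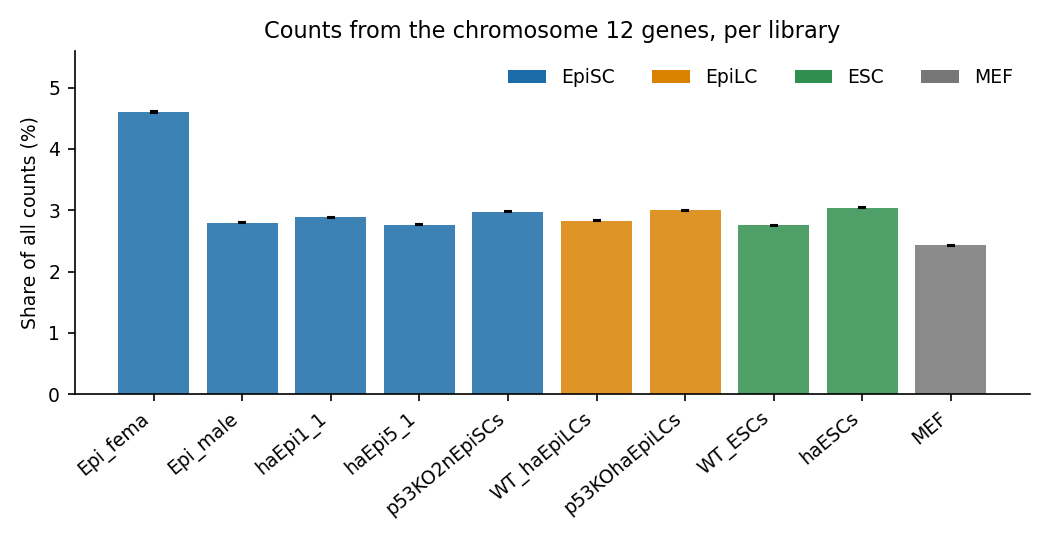
Share of all counts (%) that fell on the 341 chromosome 12 genes in each of the 10 libraries, coloured by cell type, with 95% exact binomial intervals, which are about as wide as the line. The female EpiSC library stands at 4.60% and the other 9 between 2.43 and 3.04%.

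Total counts ran from 15862113 to 18814003 per library. The 5 EpiSC libraries carried EpiSC markers at summed levels of 1262 to 2232 CPM, with 1831 CPM in the female library. The same sum was 1147 CPM in WT_ESCs, 720 CPM in haESCs, 4061 CPM in WT_haEpiLCs and 1662 CPM in p53KOhaEpiLCs. It thus does not by itself set EpiSC apart from other pluripotent cells. Fibroblast markers (6 genes) summed to 641 CPM in the female library and to 330 to 1367 CPM in the other EpiSC, against 50370 CPM in MEF, so the female library lay inside the range of the others. Naive pluripotency markers (5 genes) summed to 76.1 CPM in the female library against 5.44 to 44.9 CPM. Most of that sum was Nr0b1, an X-linked nuclear receptor gene, at 63.8 CPM against 0.231 to 26.7 CPM. The Y-linked gene Ddx3y stood at 6.22 CPM in the female library and at 96.3 CPM in Epi_male. Whether counting used strand was not stated, and 69 of the 341 genes overlap an opposite-strand gene of at least 1 CPM. Their median difference was 0.78, against 0.76 for the other 272. Reads of such partners may not be told apart, which touches Brf1, Alkbh1, Btbd6, Psma3, Cpsf2, Cpsf3, Wars, Zc3h14, Snw1, Xrcc3, Coq6, Rab10, Numb, Adam17, Klc1, Kif3c and Gpx2 among the genes below.

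Per gene, the difference was taken as log2(CPM + 0.1) of the female library minus the mean of that value over the other 4 EpiSC libraries. It had a median of 0.76 over the 341 genes, a ratio of 1.70, with quartiles of 0.57 and 0.98. It was positive for 332 genes, and 296 genes (86.8%) stood above all 4 other EpiSC libraries. On the other 18 autosomes the female library was above all 4 for 20.1% of 9093 coding genes of the same level. Since the contrast chose the chromosome, that share is a yardstick and not a test. The median of the other autosomes ran from -0.03 (chromosome 1) to 0.06 (chromosome 5), and chromosome X had -0.03. With edgeR's TMM factors in place of total counts the chromosome 12 median was 0.68 and that of the other autosomes' genes -0.05. Relative to the genes of the other autosomes it was 0.74.

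**Figure D2:**
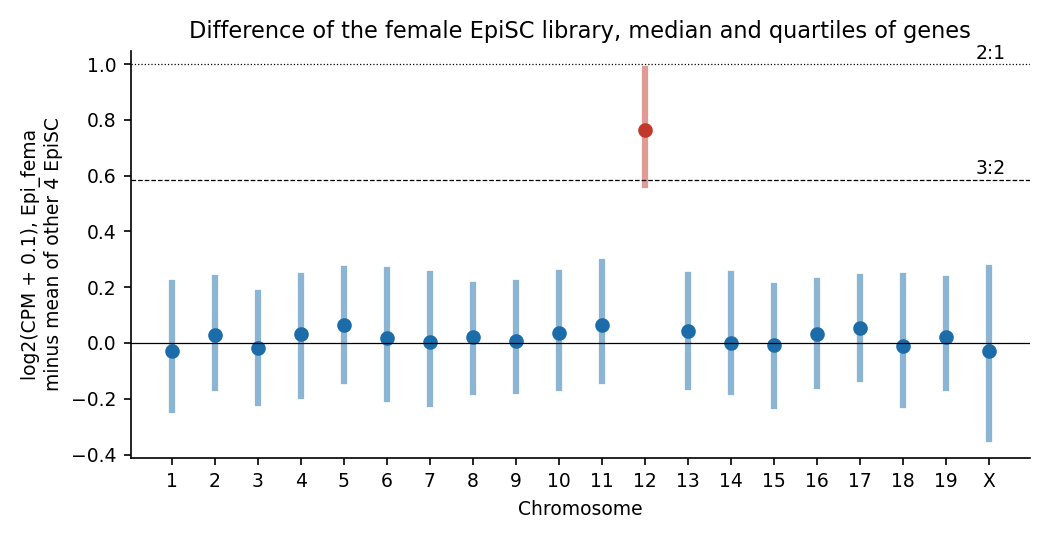
Median (point) and quartiles (bar) of the difference of the female library from the mean of the other 4 EpiSC libraries, in log2(CPM + 0.1), for coding genes of each chromosome at a mean of at least 10 CPM. Chromosome 12 stands at 0.76, between the 3:2 (dashed) and 2:1 (dotted) lines, and every other chromosome between -0.03 and 0.06.

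None of the other EpiSC lines showed such a shift of chromosome 12. Against the mean of the remaining 3 lines without the female library, the median of the 341 genes was 0.03 in haEpi1_1, -0.04 in haEpi5_1, 0.01 in Epi_male and 0.04 in p53KO2nEpiSCs. The same measure on chromosome X was 0.58 in haEpi1_1, -0.22 in haEpi5_1, -0.28 in Epi_male and -0.08 in p53KO2nEpiSCs, a wider span than that of chromosome 12. Between the ESC libraries the chromosome 12 median was 0.19 higher in haESCs than in WT_ESCs, inside the range of the other autosomes (-0.02 to 0.23). Between the EpiLC libraries it was 0.25 higher in p53KOhaEpiLCs, again inside the range of the other autosomes (-0.14 to 0.28).

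The higher level ran the length of the chromosome. In 12 successive bins of 10 Mb (mm10) the median difference was 0.62 to 0.88. The first 10 genes, from Rab10 (start 3247428), had a median of 0.89 and all 10 stood above the other 4 libraries. The last 10, up to Macc1 (end 119469987), had a median of 1.17 and 9 of them stood above. A running median over 15 neighbouring genes never fell under 0.51 and reached 1.04. The lowest stretch lay from 10 to 30 Mb, with a median of 0.63 over 33 genes against 0.78 over the other 308.

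**Figure D3:**
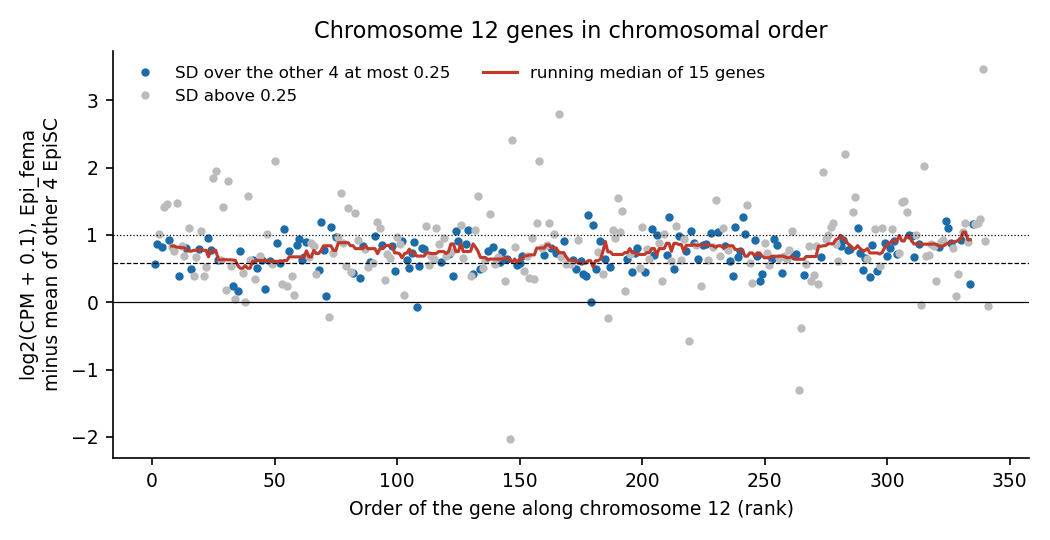
Difference of the female library from the mean of the other 4 EpiSC libraries, in log2(CPM + 0.1), for the 341 genes in their order along chromosome 12, with a running median of 15 genes (line). The running median stays between 0.51 and 1.04 from end to end, and the grey points, with an SD above 0.25 over the other 4 libraries, scatter more widely than the blue ones.

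The level of a gene made little difference to its shift. In the first of 4 classes by mean level (up to 23.4 CPM, 86 genes) the median was 0.75, and in the highest (91.0 to 3483 CPM, 85 genes) it was 0.76. The fewest reads behind a value in the female library were 51, which gives a counting error of 0.20 on the log2 scale, and the median gene had 1301 reads and an error of 0.04. The rule's cut at 10 CPM fell between Churc1 (9.95 CPM, difference 0.36) and Srp54b (9.35 CPM, 1.56) just outside and Macc1 (10.04 CPM, -0.05) and Sp8 (10.05 CPM, 3.46) just inside. Srp54b has near-identical copies on the chromosome, so its reads are uncertain. Chromosome 12 coding genes of 1 to 10 CPM, which the rule did not take, had a median of 0.82 (115 genes). Across all 341 genes, the Spearman correlation with the difference was -0.09 for level, 0.08 for transcript length and 0.01 for the span of the gene. These correlations describe genes that share their libraries.

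Gene by gene, the difference can be read only where the other 4 EpiSC lines agree among themselves. The SD of log2(CPM + 0.1) over those 4 was at most 0.25 for 152 genes, and these are called steady genes below. Their median difference was 0.74, a ratio of 1.67. Of the 152, 149 stood above all 4 other libraries, and 145 did so by at least 0.29, the midpoint between an equal level and a 3:2 ratio. By contrast 12.7% of the 4022 steady genes of the other autosomes met both conditions. Of the 152, 32 lay between 0.29 and 0.58, 92 between 0.58 and 1, and 21 at 1 or above. Thus 7 of 152 steady genes lay under the midpoint and may be called buffered by this measure.

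The scatter of chromosome 12 genes around their own median was like that of the other autosomes. The SD of the difference over the 152 steady genes was 0.25, and 0.27 over the 4022 steady genes elsewhere. The share lying at least 0.47 under the median of their set, the distance from the chromosome 12 median to the midpoint, was 4.61% (7 genes) on chromosome 12 and 3.80% on the other autosomes. The share lying as far above it was 1.97% (3 genes) and 3.85%. Genes far under the chromosome 12 median were thus about as frequent as genes equally far under the median elsewhere.

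**Figure D4:**
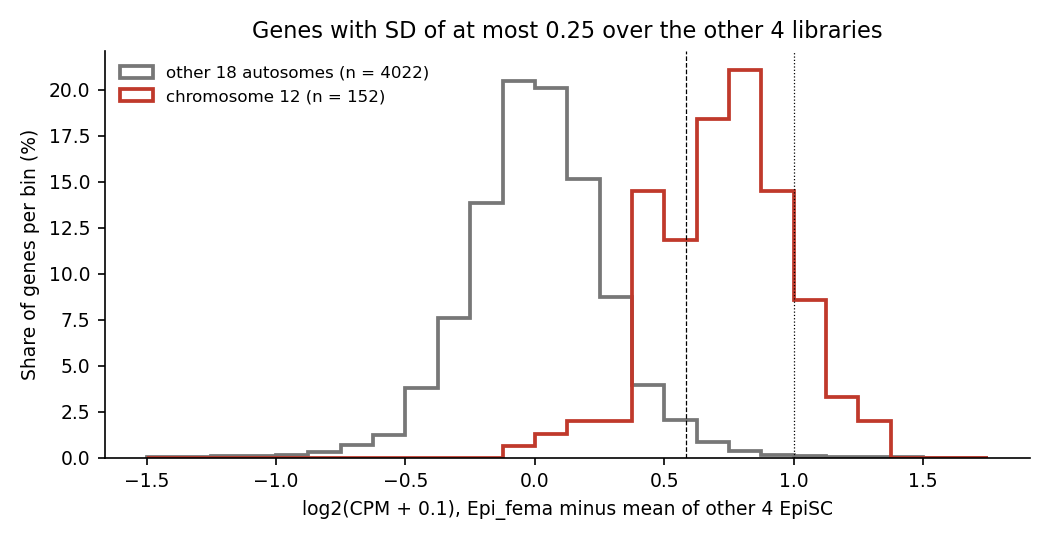
Distribution of the difference (log2(CPM + 0.1), bins on the x axis; share of genes per bin, %, on the y axis) for steady genes of chromosome 12 (red, n = 152) and of the other 18 autosomes (grey, n = 4022), with 3:2 (dashed) and 2:1 (dotted) marked. The red curve is centred at 0.74 and the grey one at 0.01, with SDs of 0.25 and 0.27.

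The 7 genes under the midpoint were Mipol1, Actn1, Snx13, Pdia6, Klf11, Rock2 and Esyt2. Mipol1 (57230427 to 57497199), which encodes a coiled-coil protein, stood at 13.7 CPM in the female library and at 13.1 (haEpi1_1), 14.7 (haEpi5_1), 14.1 (Epi_male) and 16.03 CPM (p53KO2nEpiSCs), a difference of -0.08. Actn1 (80167547 to 80260371), the actin crosslinker alpha-actinin, stood at 495 CPM against 453, 532, 475 and 517 CPM in the same order, a difference of 0.01. Snx13 (35047186 to 35147479), a sorting nexin of endosomes, stood at 46.7 CPM against 40.2, 37.5, 51.5 and 46.4 CPM, a difference of 0.10. In these 3 the female library lay among the others. In the other 4 it was the highest, by a narrow margin. Mipol1 overlaps Prps1l3 (57230412 to 57239882), a gene on the same strand with a difference of 0.90. Reads from the shared stretch may not be told apart.

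Pdia6 (17266545 to 17284770), a disulfide isomerase that folds proteins in the endoplasmic reticulum, stood at 496 CPM against 404 to 471 CPM (difference 0.17). Rock2 (16894895 to 16987823), a kinase that drives actomyosin contraction, stood at 255 CPM against 179 to 232 CPM (0.23). Klf11 (24651274 to 24662789), a zinc finger transcription factor gene, stood at 44.5 CPM against 31.6 to 44.5 CPM (0.19). These 3 all lie between 10 and 30 Mb, the stretch of the lowest median, where 3 of 14 steady genes were under the midpoint against 4 of 138 elsewhere. The stretch was chosen for its low values after they were seen, so an excess of low genes in it was built in. Esyt2 (116281196 to 116391050), a tether between the endoplasmic reticulum and the plasma membrane, stood at 147 CPM against 103 to 140 CPM (0.27). Without haEpi5_1 the number of steady genes rises to 184 and that under the midpoint to 12.

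The next lowest steady genes were Ptpn21, a tyrosine phosphatase gene (0.32), Scfd1, whose product acts in vesicle fusion (0.36), and Hsp90aa1, the inducible HSP90 chaperone (0.38). Hsp90aa1 was among the most abundant chromosome 12 messages, at 2954 CPM against 2123 to 2438 CPM.

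At the upper end were genes beyond a 2:1 ratio. Zfp36l1 (80107754 to 80113013), which encodes an RNA-binding protein that promotes decay of AU-rich messages, stood at 75.1 CPM in the female library and at 32.7 (haEpi1_1), 29.5 (haEpi5_1), 35.0 (Epi_male) and 25.8 CPM (p53KO2nEpiSCs), a difference of 1.29. Cep128 (90998492 to 91384409), a centriole gene, stood at 41.0 CPM against 18.1, 17.3, 17.3 and 15.5 CPM (1.26). Vrtn (84641019 to 84651455), a gene of vertebral patterning, stood at 128 CPM against 50.1, 54.2, 56.7 and 52.2 CPM (1.26). In each the 4 other lines lay close together and the female library lay far outside them. Zfp36l1 and Actn1 lie close together on the chromosome and had the highest and the second lowest difference of the steady genes. The other 7 of the top 10 were Brf1, a subunit of the RNA polymerase III initiation factor TFIIIB (1.21), Atxn7l1 (1.19), the condensin II gene Ncapg2 (1.17), Dcaf5 (1.15), the tetraspanin gene Tspan13 (1.13), the demethylase gene Alkbh1 (1.12) and Btbd6 (1.11).

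**Figure D5:**
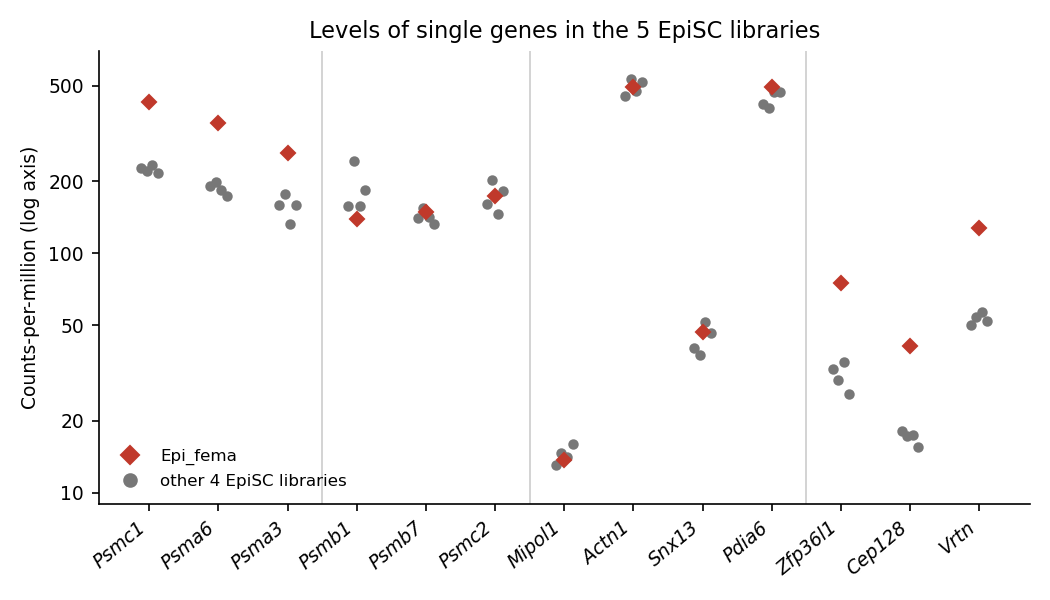
Level in CPM (log axis) of single genes in the female library, Epi_fema (red diamond) and the other 4 EpiSC libraries (grey points), in blocks of chromosome 12 proteasome genes, proteasome genes of other chromosomes, chromosome 12 genes close to the other lines and chromosome 12 genes far above them. Psmc1, Psma6 and Psma3 stand clear of the other lines in the female library, at 428, 349 and 263 CPM, while in Psmb7 and Psmc2 it lies among them and in Psmb1, at 139 CPM, under them.

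Subunits of 1 protein complex act together, so the RNA of their genes was read beside that of partners encoded elsewhere. Chromosome 12 was chosen on its difference in this library, so a gap from partners on other chromosomes was built in. The values here and in the next paragraph are a description. All 3 proteasome genes of chromosome 12 were high in the female library. Psmc1 (100110154 to 100123405), an ATPase of the regulatory particle, stood at 428 CPM against 227 (haEpi1_1), 220 (haEpi5_1), 233 (Epi_male) and 215 CPM (p53KO2nEpiSCs), a difference of 0.94. Psma6 (55384222 to 55418454), a core particle subunit, stood at 349 CPM against 190, 198, 184 and 173 CPM (0.91). Psma3 (70974621 to 70996347), another core subunit, stood at 263 CPM against 159, 176, 132 and 158 CPM (0.76), and it overlaps a gene on the opposite strand. The 17 core and ATPase subunit genes of other chromosomes had a median of -0.04, from -0.39 (Psmb1) to 0.22 (Psmb5), and 1 of them stood above all 4 other lines. The 3 chromosome 12 genes thus stood apart from most of their partners in this library.

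Other complexes gave mixed values. Eif2s1, the alpha subunit of the initiation factor eIF2, stood at 330 CPM against 213 to 267 CPM (0.49), and Eif2b2, a subunit of its exchange factor eIF2B, at 126 CPM against 48.2 to 69.8 CPM (1.05). Their 6 partner genes on other chromosomes had a median of -0.06, from -0.28 (Eif2s2) to 0.44 (Eif2s3x, which is X-linked). Cpsf2 (0.71) and Cpsf3 (0.62), which belong to the complex that cleaves and polyadenylates messages, exceeded the median of 0.16 of 11 partner genes. Of those partners 5 stood above all 4 other lines, and Cpsf4 reached 0.62, with an SD of 0.56 over the other lines. Mnat1, which assembles the CDK-activating kinase of TFIIH, stood at 72.5 CPM against 42.0 to 60.6 CPM (0.56), and 8 partner genes had a median of 0.08, with none above 0.23.

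Every role list had a median of 0.61 or more, and 163 of the 341 were in a role list. Of all 341 genes 86.8% stood above all 4 other lines, and the counts per list are to be read beside that share. For DNA replication, repair and mitosis all 19 genes stood above the other 4 lines, with a median of 0.88. They ran from Pole2, a DNA polymerase epsilon subunit (0.38), to Nin, a centrosomal anchor (1.58). Among the steadiest, Xrcc3, a gene of homologous recombination, stood at 60.4 CPM against 28.3 to 31.6 CPM (0.99), and Gen1, a resolvase of recombination junctions, at 73.3 CPM against 33.8 to 40.2 CPM (0.96). Mlh3, of mismatch repair, was at 0.89 and Cdca4 at 0.83.

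For transcription and chromatin 24 of 25 genes stood above all 4, with a median of 0.85. Klf11 was the lowest (0.19) and Mycn the highest (1.96). Max, the common partner of the MYC proteins, stood at 137 CPM against 65.6 to 78.3 CPM (0.91), Rcor1, a subunit of the CoREST corepressor, at 154 CPM against 75.8 to 90.9 CPM (0.88), and Yy1, a zinc finger regulator, at 283 CPM against 158 to 194 CPM (0.73). Brms1l, a subunit of the SIN3 corepressor, was lower at 0.51. For RNA processing all 16 genes stood above all 4, with a median of 0.77. They ran from Zc3h14, a poly(A)-binding protein gene (0.42), to Pnn, a splicing factor gene (1.14). Papola, the poly(A) polymerase, stood at 562 CPM against 287 to 362 CPM (0.84), the RNA helicase gene Ddx1 at 0.63 and the splicing factor gene Snw1 at 0.67.

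For translation and ribosome assembly 12 of 13 genes stood above all 4, with a median of 0.72. Nol10, of ribosome biogenesis, was at 0.76, the tRNA methyltransferase gene Trmt5 at 0.59 and Wars, the tryptophanyl-tRNA synthetase, at 0.48. Lrr1, a leucine-rich repeat gene whose place in this list is uncertain, was at 0.72. Trmt61a was the highest (1.49) and Gon7 the lowest (0.32). Of 17 genes of mitochondria and metabolism 12 stood above all 4, with a median of 0.71. Dlst and Dld, which encode subunits of the oxoglutarate dehydrogenase complex, were at 0.76 and 0.85, Coq6, of ubiquinone synthesis, at 0.71 and Isca2, of iron-sulfur cluster assembly, at 0.50. Lpin1, a phosphatidate phosphatase gene, was the lowest at 0.18, with 51.0 CPM inside a range of 26.6 to 67.1 CPM.

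Lists with lower medians were membrane traffic, signalling and protein quality control. In membrane traffic 20 of 23 genes stood above all 4, with a median of 0.62. Trappc6b and Ubxn2a were at 0.79 and 0.81, the small GTPase gene Rab10 at 0.57 and the golgin gene Golga5 at 0.40. In signalling 20 of 23 stood above, with a median of 0.68. The endocytic Notch inhibitor Numb was at 0.74, the ubiquitin ligase gene Traf3 at 0.69 and the protease gene Adam17 at 0.51. The lowest was Ahr, the aryl hydrocarbon receptor (-0.22). Among chaperones and ubiquitin genes 10 of 12 stood above, with a median of 0.61. The highest was Bag5, a co-chaperone of HSP70, and Pdia6 the lowest, with the HSP90 activator Ahsa1 at 0.61 and the co-chaperone gene Dnajc27 at 0.92. In the cytoskeleton list 10 of 12 stood above, with a median of 0.79. Evl, an actin polymerization factor gene, was at 1.11, the kinesin light chain gene Klc1 at 1.00 and the kinesin gene Kif3c at 0.86. These medians and counts describe the lists beside a median of 0.76 and a share of 86.8% above all 4 for all 341 genes. No difference between lists was tested.

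Of the 341 genes, 189 had an SD above 0.25 over the other 4 lines, and for these a single difference says little of dosage. Their median was 0.80 and 147 stood above all 4. The extremes of the chromosome belong here. Sp8, a developmental zinc finger gene, stood at 54.4 CPM in the female library and at 6.27 (haEpi1_1), 18.6 (haEpi5_1), 0.520 (Epi_male) and 7.98 CPM (p53KO2nEpiSCs), so the other lines differed widely among themselves. Syne2, a nuclear envelope anchor, stood at 270 CPM against 37.5 to 93.8 CPM (2.09), Bcl11b, a zinc finger transcription factor gene, at 47.0 CPM against 7.04 to 14.6 CPM (2.20), and Rnf144a, a ubiquitin ligase gene, at 44.7 CPM against 7.91 to 12.4 CPM (2.10). In these 3 genes, named after their values were seen, the female library was far outside the range of the other lines and past a 2:1 ratio. Sp8, Bcl11b and Rnf144a reach a mean of 10 CPM only with the female library counted, so they had to be high in it.

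Mycn (12936093 to 12941914), the MYC family gene most used by early embryonic cells, stood at 238 CPM in the female library and at 87.9 (haEpi1_1), 53.2 (haEpi5_1), 63.1 (Epi_male) and 48.0 CPM (p53KO2nEpiSCs), a difference of 1.96. Dnmt3a (3806007 to 3914443), a de novo DNA methyltransferase, stood at 670 CPM against 333, 163, 267 and 276 CPM (1.41). Only 3 genes were lower in the female library than in all 4 others, 4930447C04Rik, Rin3 and Lgmn. They make 0.880% of the 341, while 16% of coding genes on the other autosomes lay under all 4. Rin3, a regulator of endosomal Rab5, stood at 3.91 CPM, close to Epi_male at 4.11 CPM and under 8.93 to 16.6 CPM in the rest. Lgmn, a lysosomal protease gene, stood at 88.4 CPM against 90.1 to 144 CPM.

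Genes that the rule left out followed mixed courses. Sox11 stood at 479 CPM in the female library against 115 to 260 CPM, Meg3 at 1737 CPM against 469 to 704 CPM, Id2 at 50.5 CPM against 20.7 to 41.5 CPM and Esrrb at 11.8 CPM against 0.752 to 7.28 CPM. Fos, an immediate early gene, was lower at 5.33 CPM against 9.37 to 11.95 CPM. The ribosomal protein genes Rps7 and Rps29 had differences of 0.45 and 1.40, and Rpl10l was at 0 in the female library and at most 0.346 CPM in the others.

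Levels across cell types were compared with the female library left out, as EpiSC (n = 4) against ESC (n = 2). Of these EpiSC only Epi_male is labelled wild type, while both ESC are, so cell type and p53 label are largely tied. The level limit of the rule was a mean over all 9 pluripotent libraries, so these libraries helped to choose the genes. By edgeR's quasi-likelihood test 38 of 341 genes passed an adjusted p of 0.05, 27 higher and 11 lower in EpiSC, which is 11.1%. Over all 18436 genes tested 14.8% passed, 6.1% higher and 8.69% lower. Of the 27 higher genes, 11 reach 10 CPM only through the EpiSC libraries and had to be higher there, so the count supports nothing about the chromosome. The median log2 fold change was 0.08 for the 341 genes and -0.03 for all genes. With the female library included it was 0.25 for the 341 genes and -0.01 for all. Then 9.38% of the 341 were called higher and 2.35% lower, against 7.45% and 10.2% of all genes. Without WT_ESCs 10 of the 341 (2.93%) passed, against 5.5% of all genes.

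The widest differences between EpiSC and ESC are given as levels for 3 genes that the limit took in only through EpiSC. Itgb8, which encodes the integrin beta 8 chain that activates latent TGF-beta, stood at 11.3 (haEpi1_1), 29.0 (haEpi5_1), 21.4 (Epi_male) and 20.8 CPM (p53KO2nEpiSCs), at 0.0562 CPM in haESCs and at 0 in WT_ESCs. Its summed counts, 1416 in EpiSC and 1 in ESC, gave a ratio of 688 with a 95% counting interval of 123 to 27207. That interval pools the lines and leaves out the spread between them. Macc1, a regulator of MET expression, stood at 7.07, 21.3, 22.7 and 20.2 CPM in EpiSC and at 0.169 and 0.0629 CPM in ESC. Stxbp6, a SNARE-binding gene, stood at 20.7 to 38.2 CPM in the 4 EpiSC and at 0.281 and 0.692 CPM in ESC. The groups did not overlap in these 3 genes, which the limit favours.

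Vrtn, one of the genes most raised in the female library, stood at 50.1 to 56.7 CPM in the 4 EpiSC and at 1.35 and 0.818 CPM in ESC (log2 fold change 5.64 ± 0.78 (SE), edgeR adjusted p = 0.00393). In EpiLC it stood at 84.5 CPM (WT_haEpiLCs) and 16.2 CPM (p53KOhaEpiLCs). Pxdn, a peroxidasin of the extracellular matrix, stood at 313 to 481 CPM in the 4 EpiSC against 57.9 and 8.68 CPM in ESC and rose by 3.63 ± 0.68 (edgeR adjusted p = 0.011).

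Among those that fell, Ubxn2a, an adaptor of the p97 ATPase, stood at 34.3 to 41.9 CPM in the 4 EpiSC and at 149 and 179 CPM in ESC, a log2 fold change of -2.10 ± 0.22 (edgeR adjusted p = 0.00151). In the female library it stood at 66.4 CPM, above the other EpiSC and under both ESC. Gpx2, a glutathione peroxidase gene, stood at 0.173 to 1.65 CPM against 16.9 and 13.6 CPM (-4.42 ± 0.79, edgeR adjusted p = 0.00963). Smoc1, a matricellular gene (-2.94), 4930447C04Rik, which has a role in meiosis (-1.88), and Fancm, a Fanconi anemia helicase gene (-1.34), also fell. Leaving out 1 library ended the calls of 3 of these genes. Without WT_ESCs Smoc1 had -2.60 (edgeR adjusted p = 0.0656) and Fancm -0.88 (adjusted p = 0.176 by edgeR). Without haEpi1_1 Fancm had -1.34 (edgeR adjusted p = 0.0528), and without haESCs 4930447C04Rik had -1.37 (edgeR adjusted p = 0.0935).

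The 4 EpiSC were compared with EpiLC (n = 2) in the same fit. By edgeR 18 of 341 genes passed, 9 higher and 9 lower in EpiSC, which is 5.28% against 7.76% over all genes (2.95% higher and 4.81% lower). Of the 18, 6 reach 10 CPM only through the group where they are higher, 5 through EpiSC and 1 through EpiLC. The median was 0.00 for the 341 genes and -0.01 for all genes. With the female library included it was 0.20 for the 341 and 0.02 for all, with 19 of the 341 (5.57%) called higher and 6 lower, against 4.6% and 6.88% of all genes. Six4, a homeobox gene, fell from 151 and 85.9 CPM in EpiLC to 30.7 to 55.5 CPM in EpiSC (-1.77 ± 0.28, edgeR adjusted p = 0.0115).

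Among the 6 genes taken in through 1 side, Gpx2 stood at 93.2 CPM in p53KOhaEpiLCs and 15.1 CPM in WT_haEpiLCs against 0.173 to 1.65 CPM in EpiSC. Itgb8 stood at 0.126 and 0.771 CPM and Macc1 at 0.946 and 2.20 CPM in EpiLC, both under all 4 EpiSC. Dhrs7, a short-chain dehydrogenase gene, stood at 5.61 and 1.54 CPM in EpiLC against 12.1 to 34.6 CPM in EpiSC. Acot1, an acyl-CoA thioesterase gene with close paralogues, stood at 14.3 and 8.32 CPM against 30.2 to 56.1 CPM. No overlap of groups was seen in these 5 genes, which the limit favours.

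Of the other named genes, Jdp2, a repressor of AP-1 targets, rose by 1.90 ± 0.44, and Smoc1 (-2.84) and 4930447C04Rik (-2.43) fell. Their calls often ended with 1 library fewer while the size of the difference changed little. Jdp2 lost its call without each of the 6 libraries in turn, at 1.70 to 2.17. Smoc1 lost it without 4 of the 6, at -2.66 to -3.08, and 4930447C04Rik without p53KOhaEpiLCs, at -2.13. Six4 lost it without p53KOhaEpiLCs, at -1.43.

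For Mycn the call ended when the female library was included. It stood at 48.0 to 87.9 CPM in the 4 EpiSC and at 183 (WT_haEpiLCs) and 109 CPM (p53KOhaEpiLCs) in EpiLC, with no overlap, and its log2 fold change was -1.42 ± 0.32 with an adjusted p = 0.0348 by edgeR. With the female library, whose 238 CPM exceeds both EpiLC, the Mycn value was -0.79 with an edgeR adjusted p = 0.37. Without WT_haEpiLCs the Mycn value was -0.82 (edgeR adjusted p = 0.236). The call also ended without haEpi5_1, Epi_male or p53KO2nEpiSCs, at -1.35, -1.42 and -1.31.

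By ploidy label, haEpi1_1 and haEpi5_1 were compared with Epi_male and p53KO2nEpiSCs. Of 340 chromosome 12 genes tested 0 passed by edgeR, 24 (7.06%) had an unadjusted p under 0.05 against 10.8% of all genes, and DESeq2 called 7 (2.05%) against 3.38% of all genes. Over all 16277 genes 0.111% passed by edgeR, 0.0737% higher and 0.0369% lower in the haploid libraries. The median log2 fold change was -0.04 for the chromosome 12 genes and 0.00 for all genes. In simulated counts this fit recovered 41% of genes with a log2 change of 1, so 0 calls do not show equal levels. Both haploid libraries are labelled p53-deficient, while the p53 label differs within the diploid side and cannot be told apart from line there. Ddx3y stood at 8.98 and 5.02 CPM in the haploid libraries against 96.3 and 118 CPM, so the ploidy label also goes with Y-linked messages.

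Promoters of the 300 genes with an entry resembled those of equally expressed genes elsewhere. Their median G and C content was 62.4%, against 61.2% over 7198 genes of the other autosomes and 52.4% over all 32841 promoters in the table. TATAAA was found in 4.33% (5.58% elsewhere, 12.4% in all), CCAAT in 37% (36.9% and 33.9%), GGGCGG in 61.3% (65.1% and 32.7%), CACGTG in 8.33% (8.92% and 6.02%) and CGGAAG in 27% (28.2% and 13.6%). Of the 45 steady genes of highest difference 3 held TATAAA, 19 CCAAT and 23 GGGCGG, and of the 45 of lowest difference 2, 13 and 28. The TATAAA of Zfp36l1 and the 4 GGGCGG and 2 CCAAT matches of Actn1, printed above, are descriptions of these windows.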

How the data were processed

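Per the submitters' processing notes, the authors aligned reads to mm10 (HISAT2 2.0.5) and deposited whole-number counts per gene (featureCounts 1.5.0-p3). Messages were selected by poly-A, per the labels' protocols. Annotation release and strand setting are not given in these sources. The deposited FPKM are those counts over gene length, scaled by a constant in each library (relative deviation at most 1.66e-08), and served as an alternative. The genes and lists were chosen with earlier results of these data known.

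CPM were counts over library totals, with a pseudocount of 0.1 CPM before log2. Cell types and ploidy labels were tested without the female library by edgeR 4.0.16 in R 4.3.3 (filterByExpr, TMM, quasi-likelihood F test, Benjamini-Hochberg over all genes, threshold 0.05), with DESeq2 1.42.0 beside it. Standard errors were the size of the log2 fold change over the root of F. The fits were tested on simulated counts with a fixed spread that was not taken from these data. Of genes with a simulated log2 change of 1 they recovered 52% (ESC), 51% (EpiLC) and 41% (ploidy label). At a change of 2 they recovered 100%, and false calls numbered 5, 15 and 8. Every pair of libraries differed by more than sampling noise (chi-square per degree of freedom at least 38.9).

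Steady genes had an SD of at most 0.25. The rule for named genes took the 10 highest and 10 lowest steady genes, up to 4 of smallest SD per role list, the proteasome genes, up to 5 per direction of each test, genes beside the 10 CPM limit and genes left out by the rule. The highest and lowest of each list, the other complex subunits, Mycn, Dnmt3a, Rin3, Lgmn and Sp8 were named after their values were seen, and the 10 to 30 Mb stretch was likewise chosen afterwards. Promoters (RefSeq, GRCm38.p6) were matched by symbol, and for 258 of 300 the bases after the start were found in a transcript of the gene. A gene of the signalling list is not reported here.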

Additional observations from a re-analysis of the deposited data

How the results depend on the processing

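The median difference of the 341 genes was 0.68 with TMM factors, 0.69 with DESeq2 size factors and 0.69 with the deposited FPKM, against 0.76 with total counts; the other alternatives gave 0.74 to 0.80, and 0.76 to 0.78 without each reference library. Centring on the other autosomes (0.74) was chosen after seeing the data. The number of genes above all reference EpiSC libraries was 300 to 305 without each reference library, against 296 with all 4. With fewer references this number can only stay or rise, so it does not test the result. Steady genes under the midpoint numbered 8 to 12 without each reference library and 10 with TMM factors, out of 160 to 184 steady genes, and 18 of 213 against only the diploid and 15 of 208 against only the haploid reference libraries. Genes called against ESC numbered 10 to 35 when each library was left out. Against EpiLC they numbered 5 to 9 when 1 EpiSC library was left out, against 18. These were 1.47 to 2.64% of the 341, against 2.67 to 3.56% of all genes. DESeq2 called 37 (10.9%, against 14.1% of all genes), and 47 were called with no low-count filter (13.8%, against 10.5%). Without WT_haEpiLCs or p53KOhaEpiLCs the median log2 fold change of the 341 genes was 0.06 or 0.07. By ploidy label 7 were called by DESeq2, 15 with no low-count filter, 3 with only the diploid p53-deficient library on the diploid side, and 0 to 3 when each library was left out, against 0. Where leaving out a library left 1 on a side, that library was assumed to vary like the others. No named call changed sign. Over all genes the ploidy fit called 18, and 555 by DESeq2 and 960 with no filter; the EpiLC fit called 1430, 3009 and 3680, and the ESC fit 2728, 3998 and 4954. No paired analysis was possible because the labels give no replicate numbers shared between groups. Counting error in the female library was 0.04 for the median gene and 0.20 for the shallowest, on the log2 scale.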

Other observations

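Genes of chromosome 12 other than coding ones had a wider spread of the difference than the 341 coding genes (SD 1.25 against 0.47). The 16 noncoding genes and pseudogenes at 10 CPM or more had a median difference of 0.59, from -3.72 to 1.53, and 7 stood above all 4 other EpiSC libraries. Meg3, which the rule left out, is not among the 16. Noncoding genes of other chromosomes were not measured beside them, so the spread cannot be called particular to chromosome 12.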
